A study of Mus musculus with 31 samples.

Results

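The livers of 5 mice given *Upf3b*-GalNAc-ASO at 20 mg/kg were compared with the livers of 11 mice given DPBS, the saline vehicle. These 16 mice were all mice of those 2 groups among 31 mice in 5 groups, and they were chosen by their sample labels. DPBS as the reference shows how the treated livers differed from livers that had received no oligonucleotide at all. All mice were *hFIX-R29X* mice, a hemophilia B model that lacks the mouse gene *F9* and carries a human factor IX minigene with the R29X nonsense mutation under the human transthyretin promoter, which acts in hepatocytes. They were 8 to 14 weeks of age, received 6 subcutaneous doses every 5 days (the dose entry of the labels calls the doses weekly) and were killed 48 h after the last dose. The treated group held 2 females (replicates 1 and 6) and 3 males (replicates 2, 4 and 5), and no replicate 3 was given. The DPBS group held 6 females and 5 males. Mice given Control-GalNAc-ASO at 20 mg/kg (3 females and 3 males) and *Upf3b*-GalNAc-ASO at 10 mg/kg (2 females and 3 males) are used where their values bear on a gene. The labels do not say which DPBS mice were treated alongside which oligonucleotide, so the time of treatment and the group cannot be told apart.

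Nonsense-mediated mRNA decay (NMD) destroys mRNAs on which the ribosome stops too early. In mammals an exon junction complex left downstream of the stop codon marks such an mRNA, and UPF3B links this complex to UPF2 and UPF1. UPF3B acts in a branch of the pathway, so that many NMD substrates are still degraded without it. NMD also lowers some normal mRNAs, among them those of stress response genes and the spliced RNAs of genes that host small nucleolar RNAs.

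The oligonucleotides are gapmers with modified sugars in both wings and a DNA gap that recruits RNase H1 to the paired RNA. The attached N-acetylgalactosamine (GalNAc) binds the asialoglycoprotein receptor of hepatocytes. The sequences are printed 5′ to 3′ with the 3 bases of each wing in capitals and the 10 bases of the gap in lower case, because the main comparison is of mice that received the first of them with mice that received neither.
Upf3b ASO: GGAtatagatgtaACG
Control ASO: GGCcaatacgccgTCA
The complement of the *Upf3b* oligonucleotide, cgttacatctatatcc, occurred whole in 1 gene among the annotated mouse transcripts (GENCODE M21, GRCm38), which was *Upf3b* itself. This site is in exon 10 of 10 and 3′ untranslated, at chrX:37091973-37091988 on the minus strand. The complement of the control oligonucleotide occurred whole in 0 annotated genes.

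Each value is in TPM, the abundance unit that the authors deposited for each gene symbol. The spacing of low values gave 2047581 to 5208490 reads per treated mouse and 1184204 to 6741374 per DPBS mouse, and a floor of 3 reads then corresponded to 0.576 to 1.47 TPM and 0.445 to 2.53 TPM, which covers counting error only. The 3 DPBS females numbered as replicates 5, 6 and 7 stood apart, with median correlations of 0.797, 0.736 and 0.781 with the rest of their group, against 0.860 to 0.875 for the other DPBS mice. Replicate 2 had the lowest of the treated mice at 0.789, and its 50 most abundant genes took 38.3% of its TPM. *Alb*, which encodes the albumin of hepatocytes, was at 8085 to 22937 TPM in treated and at 9217 to 26287 TPM in DPBS mice. Y-linked *Ddx3y* was at most 1.01 TPM in the females and at least 14.7 TPM in the males of these groups, as their labels have it. *F9* was at 0 to 6.14 TPM in treated and 0 to 2.58 TPM in DPBS mice, and the highest were treated replicates 2 and 4 (6.14 and 5.07 TPM). The human minigene was not among the mouse transcripts to which the reads were assigned, and the source of the *F9* reads was not tested.

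*Upf3b* separated all treated from all DPBS mice and was lower after treatment. Replicates 1, 2, 4, 5 and 6 had 9.37, 2.68, 2.57, 16.7 and 7.68 TPM of *Upf3b*. The DPBS mice ranged from 33.8 to 136 TPM with a median of 104. The groups did not overlap, and replicate 5 retained the most. The means were 7.80 ± 5.82 TPM (SD, n = 5) and 97.3 ± 33.2 TPM (SD, n = 11), which is 92.0% lower. The difference in mean log2(TPM + 1) was -3.64 and had p = 0.000229 in an exact two-sided permutation test over the mice, the smallest p this design allows. The sex-adjusted limma estimate of its log2 fold change was -3.68 ± 0.38 (standard error), with an adjusted p of 3.21e-06. *Upf3b* was at 85.3 to 135 TPM after Control-GalNAc-ASO at 20 mg/kg and at 3.95 to 53.7 TPM after *Upf3b*-GalNAc-ASO at 10 mg/kg. RNA from whole liver was measured, so that less RNA per cell and fewer cells of a type cannot be told apart for this or any other gene.

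**Figure D1:**
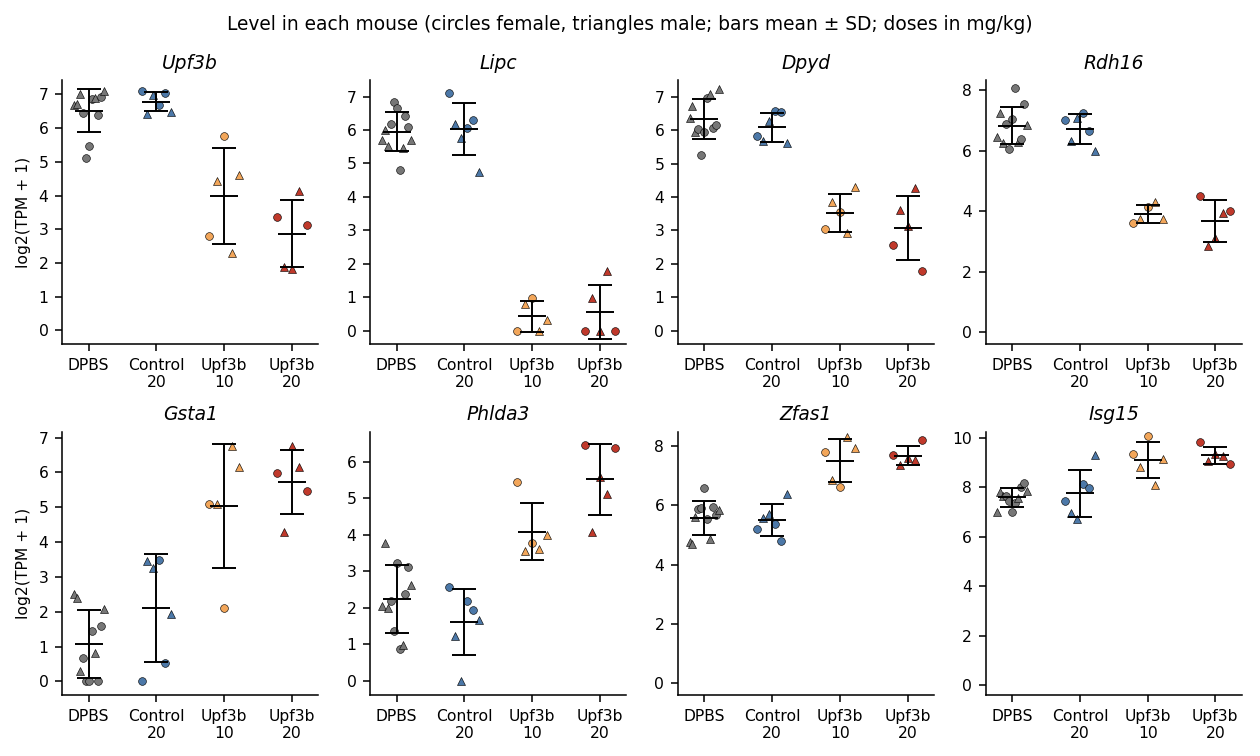
Level of 8 genes in each mouse on the log2(TPM + 1) scale by group (DPBS n = 11, Control-GalNAc-ASO 20 mg/kg n = 6, *Upf3b*-GalNAc-ASO 10 mg/kg n = 5 and 20 mg/kg n = 5). Circles are females, triangles are males, and bars show the mean ± SD. In the upper row the mice given 20 mg/kg of *Upf3b*-GalNAc-ASO lie below every DPBS mouse, and in the lower row above every DPBS mouse.

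Genes were tested where either group had a median of 5 TPM or more. Of these 9078 genes, 27 rose (0.297%) and 76 fell (0.837%) at an adjusted p under 0.05 from limma. The raised genes changed by 0.93 to 4.56 on the log2 scale and the lowered genes by -0.89 to -6.76. Most genes moved little, with 89.9% of those tested within 2-fold and a median log2 fold change of 0.05. An unadjusted p under 0.05 was reached by 1081 of the genes tested (11.9%), and 53.6% of them all had a log2 fold change above 0, which are the shares to set beside the counts of each gene list below. The study's own thresholds ask for a 2-fold difference or more and an unadjusted p up to 0.01. With the p of limma in place of the study's own p, 109 genes were higher and 195 lower by them. In the same way, 77 genes were higher and 38 lower for Control-GalNAc-ASO at 20 mg/kg against DPBS. All 5 treated mice lay above all DPBS mice in 13 of the 27 raised genes and below all of them in 35 of the 76 lowered genes, against 0.33% above and 0.474% below among all genes tested. These genes were called on the same mice, so such separation follows in part from the call and is no separate support. With single mice left out, raised genes numbered 14 to 35 and lowered genes 42 to 93, and the fewest were found without treated replicate 6. Without DPBS replicates 5, 6 and 7 there were 41 raised and 114 lowered genes, of which 25 and 70 were among those counted with all mice.

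For Control-GalNAc-ASO at 20 mg/kg against the same DPBS mice, limma called 0 of 9140 genes (0%), while 905 had an unadjusted p under 0.05. *Upf3b*-GalNAc-ASO at 20 mg/kg against Control-GalNAc-ASO at 20 mg/kg raised 87 (0.928%) and lowered 149 (1.59%) of 9376 genes. At 10 mg/kg of *Upf3b*-GalNAc-ASO against DPBS, 34 of 9032 genes (0.376%) passed, 10 of them raised and 24 lowered. These comparisons share mice with the main one, so their values are given beside those of the main comparison and are not independent of it. Of the 27 genes raised against DPBS, 14 were also raised against Control-GalNAc-ASO at 20 mg/kg. Of the 76 genes lowered against DPBS, 51 were also lowered against it. The 27 genes raised and the 76 genes lowered against DPBS had median log2 fold changes of 0.28 and -0.04 for Control-GalNAc-ASO against DPBS.

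**Figure D2:**
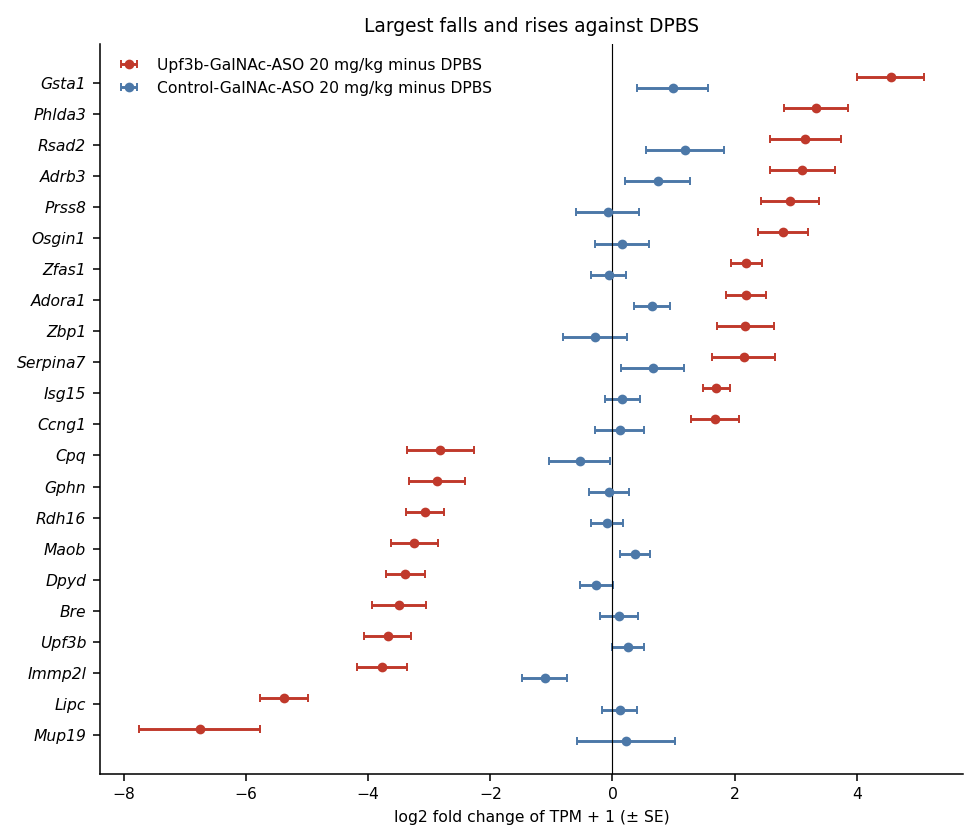
Log2 fold change of TPM + 1 (horizontal axis, ± standard error from limma) of the 12 largest rises and 10 of the largest falls that met the naming rule, for *Upf3b*-GalNAc-ASO at 20 mg/kg (red) and Control-GalNAc-ASO at 20 mg/kg (blue), each against the same 11 DPBS mice. Control-GalNAc-ASO has no point for *Phlda3*, which was below 5 TPM in the median of both of its groups. The blue points lie between -1.11 for *Immp2l* and 1.18 for *Rsad2*.

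*Lipc* encodes hepatic lipase, which hydrolyses triglycerides and phospholipids of lipoproteins, and lies at chr9:70798128-70952226 on the minus strand. It had 0, 0.960, 0, 2.44 and 0 TPM in treated replicates 1, 2, 4, 5 and 6, and 27.0 to 114 TPM in DPBS mice with a median of 63.5. No treated mouse had more than 5 reads of it. Its log2 fold change was -5.38 (standard error 0.39, adjusted p = 8.91e-09). In Control-GalNAc-ASO mice it was at 25.9 to 138 TPM and at 10 mg/kg of *Upf3b*-GalNAc-ASO at 0 to 0.980 TPM. It was the 1 gene that fell of 26 tested for lipases and lipoproteins, 2 of which rose, and the list median was -0.16 on the log2 scale. *Apoa5*, whose product promotes triglyceride hydrolysis by lipoprotein lipase, was at 741 to 942 TPM in treated and 269 to 666 TPM in DPBS mice (log2 fold change 0.93, standard error 0.22, adjusted p = 0.0281). *Apoc2*, the cofactor of lipoprotein lipase, was at 106 to 324 TPM against 37.6 to 136 TPM (1.45, standard error 0.34, adjusted p = 0.0293), and these groups overlapped. Both calls were lost without some single mice, with adjusted p up to 0.0759 for *Apoa5* without treated replicate 5 and up to 0.182 for *Apoc2* without treated replicate 6.

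Several of the largest falls were in enzymes of small molecule metabolism. *Dpyd*, which starts the breakdown of uracil and thymine, had 4.90, 11.1, 7.83, 18.1 and 2.46 TPM in treated mice and 37.1 to 148 TPM in DPBS mice with a median of 69.9. The groups did not overlap (log2 fold change -3.40, standard error 0.32, adjusted p = 9.29e-07). *Maob*, the monoamine oxidase that degrades phenylethylamine, had 17.5, 0.768, 11.5, 1.95 and 14.0 TPM against 39.2 to 186 TPM. Its log2 fold change was -3.25 (standard error 0.39, adjusted p = 1.96e-05), and replicates 2 and 5 were the lowest. *Rdh16*, a retinol dehydrogenase, had 21.6, 6.15, 7.67, 14.2 and 15.0 TPM against 65.4 to 269 TPM. Its log2 fold change was -3.07 (standard error 0.32, adjusted p = 3.19e-06), and it was the 1 gene of 19 tested for retinol metabolism that passed, in a list with a median of -0.12. *Cpq*, a secreted carboxypeptidase, was at 0.426 to 2.87 TPM against 5.07 to 118 TPM (-2.82, standard error 0.55, adjusted p = 0.0072).

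The other large falls had varied roles. *Immp2l*, a peptidase of the mitochondrial inner membrane, had 1.07, 0.192, 0, 1.95 and 0 TPM against 13.4 to 29.3 TPM. Its log2 fold change was -3.78 (standard error 0.41, adjusted p = 4.97e-06), and Control-GalNAc-ASO mice had 2.48 to 18.3 TPM (log2 fold change against DPBS -1.11, adjusted p = 0.405). *Bre*, now named *Babam2* and part of a complex that removes ubiquitin at DNA breaks, had at most 1.64 TPM in treated and at least 5.85 TPM in DPBS mice (-3.49, standard error 0.44, adjusted p = 4.32e-05). *Gphn*, needed for making the molybdenum cofactor, had at most 5.37 TPM against at least 9.59 TPM (-2.88, standard error 0.46, adjusted p = 0.000714). *Mup19*, a major urinary protein gene, had 0, 49.1, 1.98, 0.00108 and 0 TPM against 3.53 to 887 TPM and the largest fall of all at -6.76 (standard error 0.99, adjusted p = 0.00244). Major urinary protein genes are near copies of each other, and reads may have been divided among them.

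By median, the lowered genes were longer than the raised genes. Of the genes tested, 99.7% had a span in the annotation. The 76 lowered genes had a median genomic span of 79.6 kb, the 27 raised genes of 10.6 kb and all genes tested with a span of 24.0 kb. Among 1091 genes of over 100 kb, 36 fell (3.30%) and 1 rose (0.0917%). Among 2270 genes of at most 10 kb, 10 fell (0.441%) and 12 rose (0.529%). *Immp2l* (931.5 kb), *Dpyd* (870.8 kb), *Cpq* (511.4 kb), *Gphn* (458.4 kb) and *Bre* (387.3 kb) are among the former, whereas *Upf3b* spans 18.6 kb. The median log2 fold change over all genes tested went from 0.14 for those of at most 10 kb to 0.11 for 10 to 30 kb, -0.02 for 30 to 100 kb and -0.20 for over 100 kb. For Control-GalNAc-ASO at 20 mg/kg against DPBS these medians were 0.07, 0.12, 0.18 and 0.17, and for *Upf3b*-GalNAc-ASO at 10 mg/kg -0.06, 0.02, 0.07 and 0.00. For both 20 mg/kg groups against each other they were 0.09, -0.02, -0.19 and -0.40. The spans are a description, and genes are not independent of each other.

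**Figure D3:**
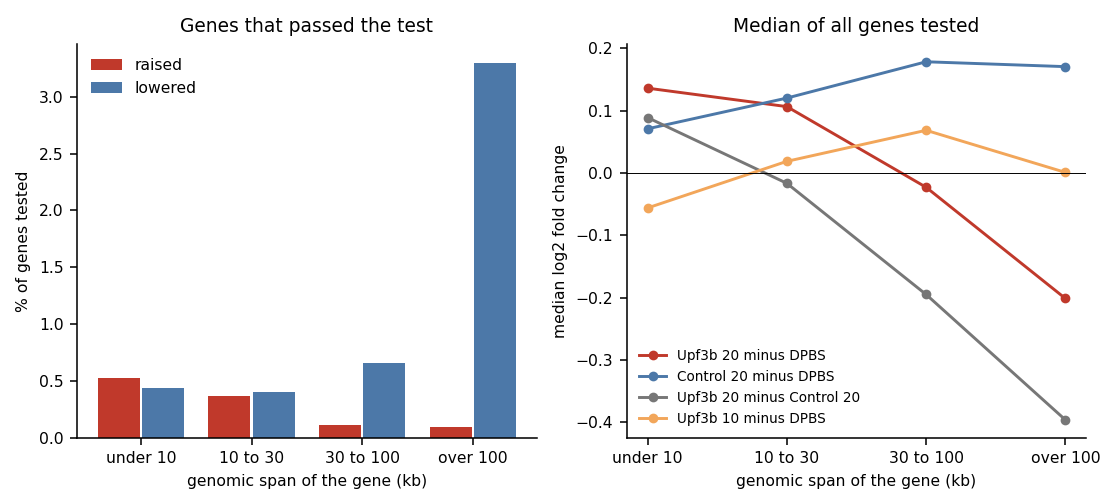
Left, share of the genes tested (%) that rose (red) or fell (blue) in *Upf3b*-GalNAc-ASO at 20 mg/kg against DPBS, by genomic span of the gene in kb; the bars start at 0. Right, median log2 fold change of all genes tested in each span class for 4 comparisons that share mice. The share of lowered genes is 3.30% over 100 kb and between 0.404% and 0.661% below that.

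The spliced transcripts of the lowered genes were searched for parts of the sequence that pairs with the *Upf3b* oligonucleotide. A run of at least 11 paired bases was present in 5 of 76 lowered genes (6.58%), *Upf3b* included, in 0 of 27 raised genes and in 42 of 8950 other genes (0.469%). With at least 10 paired bases these were 7 (9.21%), 0 and 165 (1.84%). With at least 12, *Upf3b* was the 1 lowered gene, while 10 genes that were not called (0.112%) held such a run. The windows of the lowered genes are shown with the paired run in capitals, since these are the exonic sites nearest to the target site among genes that fell.
Upf3b: CGTTACATCTATATCC
Agmo: tctcACATCTATATCa
Clptm1: ggctcCATCTATATCC
Hsd3b3: cattgCATCTATATCC
Wipi1: gaatcCATCTATATCC
The run lies in coding sequence of *Agmo* (chr12:37243799-37243809), *Clptm1* (chr7:19643139-19643149) and *Wipi1* (chr11:109597163-109597173), and in a non-coding transcript of *Hsd3b3* (chr3:98761699-98761709). The log2 fold changes were -1.63 for *Agmo*, -1.76 for *Clptm1*, -2.43 for *Hsd3b3* and -2.18 for *Wipi1*. The calls of *Agmo* and *Clptm1* were lost without some single mice, with adjusted p up to 0.109 for *Agmo* without treated replicate 6 and 0.0804 for *Clptm1* without treated replicate 4. For the control oligonucleotide, runs of at least 10 paired bases occurred in 0 of the lowered and 26 (0.291%) of the other genes. The longest run over all annotated transcripts of a gene was taken, and the shares were not matched for the length or number of transcripts. Introns were not analysed here, and a match is no proof of pairing in the cell.

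*Gsta1* had the largest rise. It lies at chr9:78230656-78242684 and encodes an alpha class glutathione S-transferase, an enzyme that couples glutathione to electrophiles. It had 62.8, 18.4, 107, 69.5 and 43.3 TPM in treated replicates 1, 2, 4, 5 and 6 and 0 to 4.64 TPM in DPBS mice with a median of 0.757. The groups did not overlap, and replicate 2 was the lowest of the treated mice (log2 fold change 4.56, standard error 0.55, adjusted p = 2.01e-05). Control-GalNAc-ASO mice had 0 to 10.2 TPM and mice at 10 mg/kg had 3.35 to 107 TPM. Near copies such as *Gsta2* may have shared reads with it. Of 19 glutathione S-transferase genes tested, *Gsta1* rose and *Gstt3* fell (-2.0, standard error 0.37, adjusted p = 0.00442), and the median of the list was 0.13. The level of *Gstt3* differed by sex. It was at 29.1 and 33.2 TPM in treated females against 160 to 313 TPM in DPBS females. Treated males had 9.28 to 60.3 TPM against 42.3 to 106 TPM in DPBS males, with overlap.

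*Osgin1*, a gene induced by oxidative stress, was the 1 of 19 targets of NRF2, the main factor of the antioxidant response, that rose. It had 236, 473, 459, 378 and 427 TPM against 11.8 to 111 TPM in DPBS mice. The groups did not overlap (log2 fold change 2.79, standard error 0.42, adjusted p = 0.000471). The values were 25.2 to 154 TPM for Control-GalNAc-ASO at 20 mg/kg and 35.3 to 181 TPM for *Upf3b*-GalNAc-ASO at 10 mg/kg (log2 fold change against DPBS 0.53, adjusted p = 0.767). *Me1*, malic enzyme, fell within the same list (-1.08, standard error 0.26, adjusted p = 0.0377), and the median of the list was 0.12. The call of *Me1* was lost without any of 8 single mice, with adjusted p up to 0.102 without treated replicate 6. The promoters of *Gsta1* and *Osgin1* in RefSeq (250 bases before to 50 after the start, GRCm38.p6) did not hold the core of the antioxidant response element (TGAC, any 3 bases, GC) on either strand, which 12.4% of 32851 promoters held. For *Osgin1* this window (chr8:119436897-119437196) lies inside the gene, which starts at chr8:119434124 in GENCODE. The sequence before that upstream start was not searched, and a part of NRF2 was not tested.

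Targets of p53, the factor that answers DNA damage and other stress, rose in 4 of 18 genes tested, and 0 fell. The median log2 fold change of these 18 genes was 0.99, against 0.05 over all genes tested, and 16 were higher. *Phlda3*, which restrains the kinase AKT, had 86.5, 15.7, 46.5, 33.7 and 81.7 TPM against 0.844 to 12.5 TPM. The groups did not overlap, and both females were the highest (log2 fold change 3.34, standard error 0.52, adjusted p = 0.000587). *Ccng1*, cyclin G1, had 40.5, 17.7, 35.5, 38.1 and 34.1 TPM against 4.22 to 22.6 TPM (1.68, standard error 0.40, adjusted p = 0.0327). *Bax*, which opens the outer mitochondrial membrane in apoptosis, had 188, 122, 178, 123 and 250 TPM against 31.2 to 125 TPM (1.23, standard error 0.30, adjusted p = 0.0431). *Aen*, a nuclease of apoptosis, had 100, 66.4, 102, 91.8 and 234 TPM against 11.3 to 82.8 TPM (1.47, standard error 0.36, adjusted p = 0.0461). *Ccng1*, *Bax* and *Aen* overlapped with the DPBS mice in replicate 2, and *Bax* also in replicate 5. *Phlda3* stayed called without each mouse, while the other calls were lost without some mice, with adjusted p up to 0.111 for *Ccng1* without treated replicate 1, and 0.247 for *Bax* and 0.237 for *Aen* without treated replicate 6. Against Control-GalNAc-ASO at 20 mg/kg, 3 of the listed genes rose, with a list median of 0.98. For Control-GalNAc-ASO against DPBS the list median was 0.19.

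Interferon-stimulated genes rose in 3 of 33 genes tested, and 0 fell. The list median was 0.90 on the log2 scale, 31 genes were higher, and 14 had an unadjusted p under 0.05, all of them higher. *Isg15*, a ubiquitin-like modifier, had 902, 540, 642, 611 and 492 TPM against 126 to 291 TPM. All treated mice lay above all DPBS mice (log2 fold change 1.70, standard error 0.23, adjusted p = 0.000104). *Rsad2*, the antiviral enzyme viperin, had 132, 482, 185, 160 and 145 TPM against 0.972 to 47.3 TPM. It rose by 3.16 (standard error 0.58, adjusted p = 0.00657), with replicate 2 far above the others. *Zbp1*, a sensor of Z-form nucleic acids, had 65.6, 19.6, 37.8, 42.0 and 62.6 TPM against 0.844 to 23.6 TPM (2.18, standard error 0.47, adjusted p = 0.0147). Replicate 2 overlapped with the DPBS mice, and without treated replicate 6 the adjusted p of *Zbp1* was 0.0877. Control-GalNAc-ASO mice reached 635 TPM for *Isg15* and 209 TPM for *Rsad2*, above the lowest treated mice, and the list median for Control-GalNAc-ASO against DPBS was 0.27. Against Control-GalNAc-ASO at 20 mg/kg, 3 of the listed genes rose, with a list median of 0.62.

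The promoters of *Isg15* and *Rsad2* in RefSeq (GRCm38.p6) hold the core of the interferon-stimulated response element (GAAA, any 2 bases, GAAA) on 1 of the strands, as do 3.44% of 32851 promoters. The 150 bases before each start are printed with the matches in capitals, because both genes rose. *Zbp1*, the other interferon-stimulated gene that rose, was not searched. *Isg15* lies on the minus strand (chr4:156200819-156200968) and has 3 overlapping matches. *Rsad2* lies on the minus strand (chr12:26456453-26456602) and has 1 match.
Isg15: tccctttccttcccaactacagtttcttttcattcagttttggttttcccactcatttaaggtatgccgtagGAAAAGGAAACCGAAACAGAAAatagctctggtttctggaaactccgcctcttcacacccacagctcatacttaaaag
Rsad2: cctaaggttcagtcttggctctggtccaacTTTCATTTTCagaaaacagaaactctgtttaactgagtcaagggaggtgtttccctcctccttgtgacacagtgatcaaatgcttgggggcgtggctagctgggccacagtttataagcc
A match describes the sequence and was not tested for binding.

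Of the NMD pathway itself, *Upf3b* was the 1 factor of 12 tested that passed, the highest of the others had a log2 fold change of 0.90 without passing, and the list median was -0.03. In the exon junction complex 0 of 11 genes passed in limma, and 0 had an unadjusted p under 0.05. *Eif4a3*, its RNA-binding core, was at 11.3 to 38 TPM against 16.7 to 60.8 TPM (-0.61, standard error 0.34, adjusted p = 0.50). *Pnn* was at 25.2 to 60.7 TPM against 24.6 to 102 TPM (-0.53, standard error 0.31, adjusted p = 0.519). *Zfas1*, a host gene of small nucleolar RNAs, had 204, 162, 190, 181 and 294 TPM against 24.9 to 94.8 TPM in DPBS mice. All treated mice lay above all DPBS mice (log2 fold change 2.19, standard error 0.25, adjusted p = 1.56e-05), and mice at 10 mg/kg had 97.5 to 312 TPM. *Zfas1* starts beside *Znfx1* on the opposite strand, and whether the assignment of reads used the strand is not given in the sources used here. Of 27 textbook NMD substrates tested, *Rassf1*, a tumour suppressor gene, rose and 0 fell, and the list median was 0.36. In all 18 were higher, and 6 had an unadjusted p under 0.05 in limma, all of them higher. For Control-GalNAc-ASO at 20 mg/kg against DPBS the list median was 0.14. *Rassf1* had 180, 906, 166, 184 and 180 TPM against 45.6 to 109 TPM (1.54, standard error 0.32, adjusted p = 0.0123). Replicate 2 was far above the others, and the groups did not overlap.

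Other large rises were in 2 receptors, a protease and a plasma protein. *Adora1*, the adenosine A1 receptor, had 197, 539, 742, 391 and 628 TPM against 33.4 to 232 TPM (2.18, standard error 0.33, adjusted p = 0.000471). *Adrb3*, the beta-3 adrenergic receptor, had 13, 32.1, 141, 31.7 and 10.3 TPM against 0 to 10.3 TPM (3.11, standard error 0.53, adjusted p = 0.00157). In both, the lowest treated mouse lay within the DPBS range but above the DPBS mice of its own sex. *Prss8*, the membrane-bound protease prostasin, had 47.5, 207, 126, 66.9 and 92.1 TPM against 1.29 to 27.6 TPM (2.91, standard error 0.48, adjusted p = 0.00105). *Serpina7*, the thyroxine-binding globulin of plasma, had up to 50.8 TPM against 0.968 to 20.1 TPM, without overlap (2.15, standard error 0.51, adjusted p = 0.0356). Control-GalNAc-ASO mice reached 43.4 TPM of *Serpina7*, and its adjusted p rose to 0.143 without treated replicate 1.

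**Figure D4:**
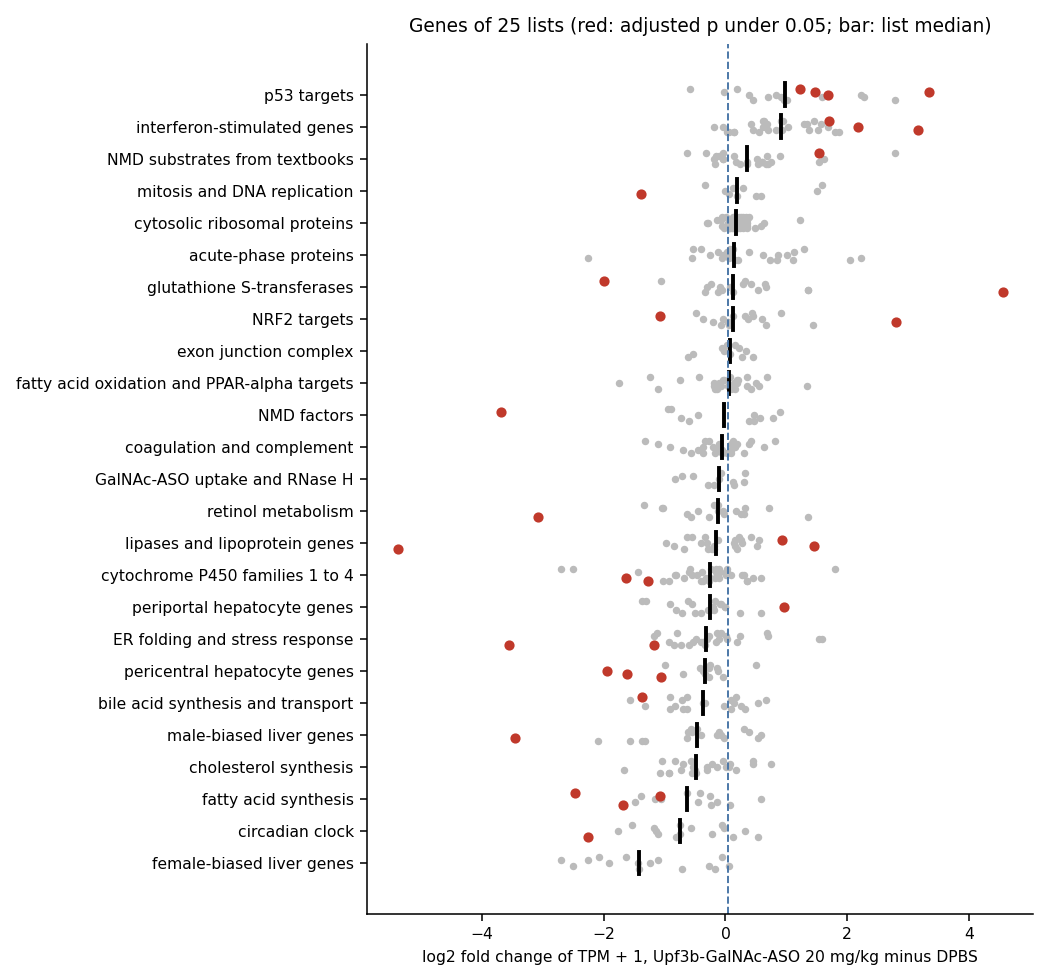
Log2 fold change of TPM + 1 (horizontal axis) of each gene tested in 25 pathway lists, *Upf3b*-GalNAc-ASO at 20 mg/kg against DPBS. Red points passed at an adjusted p under 0.05, black bars are list medians, and the dashed line is the median of all genes tested at 0.05. The medians run from -1.42 for female-biased liver genes to 0.99 for p53 targets.

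Lipid synthesis genes were mostly lower. Of 15 genes of fatty acid synthesis tested, 3 fell and 0 rose, 13 were lower, and the list median was -0.63. *Thrsp*, which promotes lipogenesis, had 188, 134, 91.2, 126 and 23.6 TPM against 353 to 1308 TPM, without overlap (-2.47, standard error 0.37, adjusted p = 0.000471). Control-GalNAc-ASO mice had 129 to 524 TPM. *Scd1*, stearoyl-CoA desaturase, had 895, 1409, 539, 1371 and 492 TPM against 1761 to 4987 TPM, also without overlap (-1.68, standard error 0.27, adjusted p = 0.000718). *Me1* was the other. In cholesterol synthesis 0 of 25 genes passed in limma, 9 had an unadjusted p under 0.05, all lower, and the list median was -0.49. *Cyp51* was at 106 to 398 TPM against 325 to 1657 TPM (-0.92, standard error 0.31, adjusted p = 0.182). *Stard4* was at 22.7 to 60.8 TPM against 44.5 to 143 TPM (-1.05, standard error 0.31, adjusted p = 0.117). In fatty acid oxidation and PPAR-alpha targets 0 of 28 passed, 5 had an unadjusted p under 0.05, and the median was 0.06, with *Acot1* at -1.74 (adjusted p = 0.0781) and *Plin2* at 0.68 (adjusted p = 0.212).

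Cytochrome P450 and bile acid genes included 3 that fell. Of 40 genes of P450 families 1 to 4 tested, 2 fell and 0 rose, with a list median of -0.25. *Cyp2c29* had 167, 81.8, 174, 188 and 116 TPM against 197 to 485 TPM, without overlap (-1.27, standard error 0.23, adjusted p = 0.00343). *Cyp2c37* had 137, 11.1, 47.6, 31.4 and 111 TPM against 75.2 to 586 TPM (-1.64, standard error 0.30, adjusted p = 0.00343). Control-GalNAc-ASO mice at 20 mg/kg had 171 to 312 TPM of *Cyp2c29* (log2 fold change against DPBS -0.47, adjusted p = 0.469). Against these mice *Cyp2c29* did not pass (-0.74, adjusted p = 0.151), while *Cyp2c37* did (-1.42, adjusted p = 0.0353). The genes of the *Cyp2c* cluster are similar, and reads may have been divided among them. Of 21 genes of bile acid synthesis and transport, *Cyp39a1*, which hydroxylates oxysterols, fell (-1.36, standard error 0.30, adjusted p = 0.0174), and the list median was -0.37. The values of *Cyp39a1*, 11.5 to 162 TPM, overlapped with those of DPBS mice at 63.1 to 455 TPM, and without treated replicate 6 its adjusted p was 0.0951. In this list 10 genes had an unadjusted p under 0.05 in limma, 8 of them lower and 2 higher. Against Control-GalNAc-ASO at 20 mg/kg, 5 of the listed genes fell and 0 rose.

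Among genes of the hepatocytes around the central vein, 3 of 15 tested fell, and 4 had an unadjusted p under 0.05. In all 14 were lower, with a list median of -0.34. *Slc1a2*, a glutamate transporter, had 42.2, 24.7, 43.5, 26.8 and 21.2 TPM against 72.4 to 287 TPM (-1.94, standard error 0.30, adjusted p = 0.000504). *Glul*, glutamine synthetase, had 316, 195, 227, 248 and 321 TPM against 331 to 1274 TPM (-1.06, standard error 0.24, adjusted p = 0.0247). In both genes all treated mice lay below all DPBS mice. *Oat*, ornithine aminotransferase, had 50.3, 116, 51.1, 23.9 and 69.2 TPM against 92.0 to 446 TPM, with replicate 2 in the DPBS range (-1.61, standard error 0.34, adjusted p = 0.0132). The adjusted p of *Glul* was 0.0977 without treated replicate 6, and that of *Oat* 0.0598 without treated replicate 1. Control-GalNAc-ASO mice reached 222 TPM of *Slc1a2*, 917 TPM of *Glul* and 369 TPM of *Oat*. Of 21 periportal genes, *Igfbp2* rose (0.97, standard error 0.24, adjusted p = 0.0484), the list median was -0.25 and 18 genes were lower. The call of *Igfbp2* was lost without most single mice, with adjusted p up to 0.265 without treated replicate 6.

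Genes that differ between the sexes in mouse liver, mostly through the pattern of growth hormone secretion, had their lower medians in the sex in which they are high. Of 15 female-biased genes tested, 14 were lower, 0 passed in limma over both sexes and 7 had an unadjusted p under 0.05. When the effect was fitted in each sex, their median log2 fold change was -3.42 in females and -0.07 in males. Without DPBS replicates 5, 6 and 7, which are all females, the medians were -1.48 and -0.11 over the 9 of these genes that were then tested. Of 19 male-biased genes, *Serpina1e* fell and 0 rose, and the medians were -0.04 in females and -0.86 in males. The treated females numbered 2 and the treated males 3, which limits every value by sex. A gene near 0 in the other sex cannot fall there, so these medians are no test of an effect confined to a sex. *Cyp2c40*, a female-biased gene, had at most 8.60 TPM in DPBS males. It passed the filter through the DPBS group alone, with medians of 137 TPM there and 1.78 TPM in treated mice. The former was the level of a female and the latter that of a male, so these medians also differ by sex. Females were the majority of DPBS mice and males of treated mice, so other female-biased genes can pass in this way. The count of 14 lower genes is thus a description and no separate support for a fall.

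*Hamp2*, a hepcidin gene that female livers express more, had 5.13 and 0.842 TPM in the treated females and 140 to 388 TPM in DPBS females. It had 2.87 to 10.3 TPM in treated males and 0.189 to 18.7 TPM in DPBS males. The treated females were thus in the range of the males, while Control-GalNAc-ASO females had 152 to 245 TPM and the females at 10 mg/kg had at most 1.63 TPM. The log2 fold change was -6.33 in females and 0.76 in males, and *Hamp2* was the 1 gene of 9078 (0.011%) that passed the test of treatment by sex (difference 7.09, standard error 1.05, adjusted p = 0.00775 from limma). DPBS males had too little *Hamp2* for a fall as large as in females to be seen. Without DPBS replicates 5, 6 and 7 the difference was 6.82 (standard error 1.22, adjusted p = 0.225), and 0 genes passed. *Cyp2c69* had 7.91 and 10.1 TPM in treated females against 180 to 947 TPM in DPBS females, and 0.525 to 16.7 TPM in treated males against 0.644 to 7.49 TPM in DPBS males (difference 5.38, adjusted p = 0.131). *Cyp2c40* had 30.6 and 89.3 TPM against 137 to 390 TPM in females and at most 8.60 TPM in any male of these groups. *Serpina1e*, an alpha-1 antitrypsin gene of male liver with close copies, had 92.4, 32.5 and 53.3 TPM in treated males against 744 to 2149 TPM in DPBS males. Treated females had 1.92 and 18.3 TPM of it against 16.6 to 96.0 TPM in DPBS females (log2 fold change over both sexes -3.46, standard error 0.49, adjusted p = 0.000471). *Ddx3y* had 14.7 to 21.2 TPM in treated males, below the 40.1 to 57.9 TPM of DPBS males. Its log2 fold change was -1.30 in males and -0.18 in females, where it is near 0, and it did not pass the test of treatment by sex (adjusted p = 0.958).

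**Figure D5:**
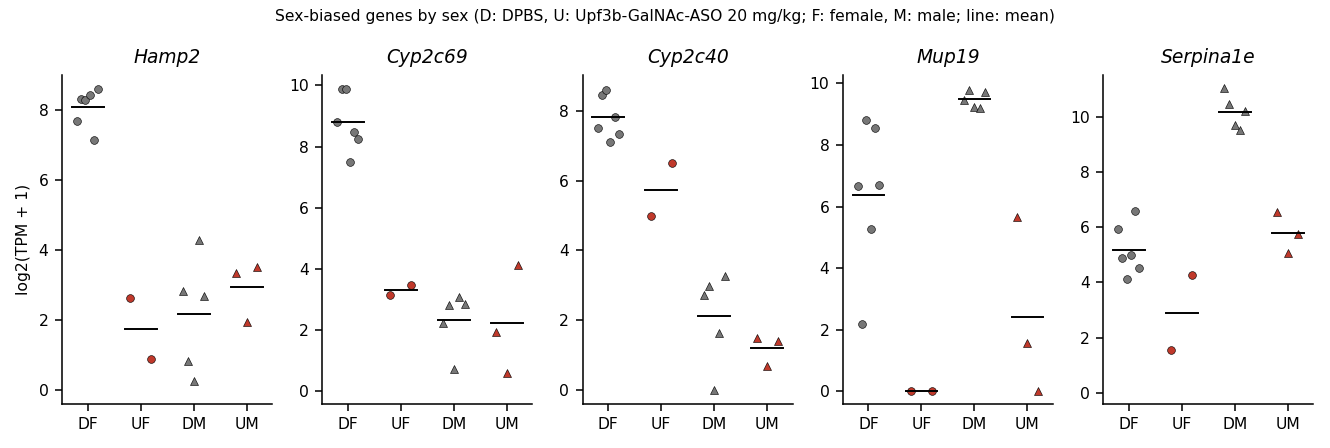
Level of 5 genes in each mouse on the log2(TPM + 1) scale, by treatment (D, DPBS; U, *Upf3b*-GalNAc-ASO at 20 mg/kg) and sex (F, 6 DPBS and 2 treated females; M, 5 DPBS and 3 treated males). Lines show means. The treated females have less *Hamp2*, *Cyp2c69* and *Cyp2c40* than every DPBS female, and the treated males less *Mup19* and *Serpina1e* than every DPBS male.

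Calls were also made among clock, endoplasmic reticulum and cell division genes. Of 16 circadian clock genes tested, *Usp2*, a ubiquitin protease with a daily rhythm, fell from 28.4 to 73.3 TPM in DPBS mice to 5.75 to 13.2 TPM (-2.26, standard error 0.31, adjusted p = 0.000114), and the list median was -0.75. Control-GalNAc-ASO mice had 3.75 to 64.5 TPM of *Usp2* (log2 fold change against DPBS -1.27, adjusted p = 0.349). Of 28 genes of folding and stress in the endoplasmic reticulum, 2 fell, with a list median of -0.32. *Sil1*, an exchange factor of the chaperone BiP, had 5.11, 0.384, 1.38, 0.977 and 0 TPM against 0 to 40.5 TPM with a DPBS median of 32.5 (-3.55, standard error 0.69, adjusted p = 0.00681, and 0.0564 without treated replicate 6). *Dnajc3*, a co-chaperone, was at 60.9 to 168 TPM against 116 to 338 TPM (-1.17, standard error 0.25, adjusted p = 0.0134). Of 11 genes of mitosis and DNA replication, *Ccnd1*, cyclin D1, fell (-1.38, standard error 0.34, adjusted p = 0.0488), the list median was 0.20, and the call was lost without most single mice, with adjusted p up to 0.112 without treated replicate 6.

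Lists of secreted plasma proteins held no call. Of 26 acute-phase genes 0 passed in limma and 7 had an unadjusted p under 0.05, with a median of 0.14. Fitted in each sex, the list median was -0.31 in females and 0.66 in males, a difference that was not tested for the list. The summed level was 15987 to 77691 TPM in treated mice, highest in replicate 2, and 14275 to 22965 TPM in DPBS mice. *Hpx*, hemopexin, was at 1285 to 4271 TPM against 508 to 1572 TPM (1.12, standard error 0.28, adjusted p = 0.0526) and *Hp*, haptoglobin, at 3460 to 10681 TPM against 1445 to 3479 TPM (0.86, standard error 0.24, adjusted p = 0.0948). Of 31 genes of coagulation and complement, 0 passed, 5 had an unadjusted p under 0.05, and the median was -0.06, with *Kng1* at 0.62 (adjusted p = 0.163) and *Klkb1* at -1.10 (adjusted p = 0.169). Of 52 cytosolic ribosomal protein genes, 0 passed, 3 had an unadjusted p under 0.05, and the median was 0.17, with *Rps19* at 0.64 (adjusted p = 0.172) and *Rpsa* at 0.59 (adjusted p = 0.30). Of 11 genes of GalNAc-ASO uptake and RNase H, 0 passed, 1 had an unadjusted p under 0.05, and the median was -0.10, with *Lamp2* at -0.71 (adjusted p = 0.186) and *Rnaseh2b* at -0.82 (adjusted p = 0.42).

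The summed levels of cell type markers overlapped between the groups for each of 8 cell type lists. The 12 hepatocyte markers summed to 38950 to 61967 TPM in treated and 38970 to 75916 TPM in DPBS mice, and *Serpina1a* fell among them (-0.89, standard error 0.20, adjusted p = 0.0191, and 0.117 without treated replicate 1). The 16 markers of Kupffer cells and macrophages summed to 459 to 1103 TPM against 434 to 1162 TPM, and 0 of 13 tested passed, with 2 at an unadjusted p under 0.05 (*Cd5l* at 0.88, adjusted p = 0.211, and *Cd68* at 1.27, adjusted p = 0.398). The 13 endothelial markers summed to 1901 to 2609 TPM against 777 to 2635 TPM, and 0 passed, with 3 at an unadjusted p under 0.05. Their sum was 773 to 1893 TPM in Control-GalNAc-ASO mice, below every treated mouse, and 2 of 13 rose against that group, among them *Egfl7* (log2 fold change 1.5, adjusted p = 0.00391). *Egfl7* was at 248 to 360 TPM against 57.7 to 245 TPM without overlap (1.11, adjusted p = 0.0826), and *Dnase1l3* had a log2 fold change of -0.90 (adjusted p = 0.231). The 10 markers of neutrophils and monocytes summed to 263 to 470 TPM against 136 to 552 TPM, of which *Cxcr2* alone was tested (0.23, adjusted p = 0.816). The median sum was 365 TPM in treated and 361 TPM in DPBS mice, and the median of *Cxcr2* alone was 344 and 325 TPM. This sum was thus mostly *Cxcr2*, and its overlap says little about the other markers of the list. The 14 markers of stellate cells and fibroblasts summed to 163 to 243 TPM against 158 to 297 TPM, *Timp1* was at 0 in all 16 mice, and 0 of 7 tested passed or had an unadjusted p under 0.05 (*Col14a1* at -0.60 and *Ecm1* at 0.34). The 15 markers of T, B and NK cells summed to at most 57.4 TPM in any of the 16 mice, none was tested, and *Cd2* was at 0 throughout. The 9 cholangiocyte markers summed to 25.9 to 204 TPM against 10.9 to 39.7 TPM, with 180 TPM of *Sox9* in treated replicate 2 (1.31, adjusted p = 0.45). The 8 erythroid markers summed to 747 to 2015 TPM against 707 to 2009 TPM, and 0 of 6 passed or had an unadjusted p under 0.05 (*Hba-a2* at 0.37 and *Hbb-bt* at 0.29). The part of other cell types in the changes above was not tested.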

How the data were processed

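Single-mouse liver RNA-seq of 31 mice was analysed, and 16 of them form the main comparison. The authors quantified reads with Salmon 0.7.2 against Ensembl mouse cDNA (GRCm38), after bcl2fastq 2.17.1.14 per the labels, and deposited TPM per gene symbol. The labels name a 3′ end kit and the methods a TruSeq protocol. From 69.9% to 81.5% of a mouse's values were whole multiples, within 0.02 read, of a single step, so the values are scaled reads not divided by length and levels of different genes were not compared. The rest were not whole, so no test for counts was used. Of 31198 symbols, 26 altered to dates were left out. Depth was taken from the step, and low values rest on few reads.

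log2(TPM + 1) was fitted with limma 3.58.1 in R 4.3.3 (trend and robust on, sex as a covariate, only the mice of the groups compared) for genes whose median reached 5 TPM in at least 1 group, with Benjamini-Hochberg adjustment over all genes tested and calls at 0.05. Fold changes are on the log2(TPM + 1) scale, which understates changes of low genes. The labels do not name separate litters or cages, so p-values measure the spread between these mice. *Upf3b* was tested by exact permutation over the mice. Named genes are *Upf3b*, the 12 largest rises and 12 largest falls beyond every DPBS mouse of the same sex, predicted genes left out, and up to 4 called (otherwise 2) genes from each of 33 lists; *Agmo*, *Clptm1*, *Hsd3b3*, *Wipi1*, *Hamp2*, *Alb*, *F9* and *Ddx3y* were added after their values were seen. Some genes named by this rule are not reported here. The members and lists were chosen with earlier results of these data known. Alternatives covered pseudocount, filter, scaling, covariate, weights and single mice. Scripts were tested on simulated data. Python 3.11.15 and matplotlib 3.10.9 were used. Positions and spans came from GENCODE M21, promoters from RefSeq (GRCm38.p6).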

Additional observations from a re-analysis of the deposited data

Results flagged for a closer look

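A single treated mouse lay far from the other 4, by Dixon's test at the 95% level, in 11 of 70 named genes, and about 1 in 20 such tests exceeds that level by chance. Replicate 2 was that mouse for 8 genes. It had the highest level of *Rassf1* at 906 TPM (next 184), *Rsad2* at 482 TPM (next 185), *Hp* at 10681 TPM (next 4542) and *Mup19* at 49.1 TPM (next 1.98). It had the lowest level of *Ccng1* at 17.7 TPM (next 34.1), *Cyp51* at 106 TPM (next 283), *Lamp2* at 110 TPM (next 200) and *Me1* at 50.5 TPM (next 141). Replicate 1 was the highest for *Egfl7* at 360 TPM (next 276) and the lowest for *Serpina1a* at 201 TPM (next 306). Replicate 5 was the lowest for *Cd68* at 3.42 TPM (next 10.1).

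The fitted effect of treatment on *Hamp2* differed between the sexes, with a log2 fold change of -6.33 in females and 0.76 in males. The difference was 7.09 (adjusted p = 0.00775 from limma). DPBS males had at most 18.7 TPM of *Hamp2*, so a fall as large as in females could not be seen in males. The treated females numbered 2. Without DPBS replicates 5, 6 and 7 the difference was 6.82 (adjusted p = 0.225 from limma).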

How the results depend on the processing

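The 27 raised genes became 48 with array weights and 109 by the study's thresholds with the p of limma. Without DPBS replicates 5, 6 and 7, an alternative chosen after the data were seen, 41 genes rose. With treated replicate 2 left out as well 61 rose, and 106 fell. The 76 lowered genes became 124 with all 31 mice in a single fit and 195 by the study's thresholds with the p of limma. Leaving out single mice gave 14 to 35 raised and 42 to 93 lowered genes. Of all called genes, 13 raised and 34 lowered remained called without each single mouse, and 6 and 16 remained in all 30 alternatives. Without treated replicate 6, 14 of the 46 named calls were lost, and without treated replicate 1, 10 were. No filter on low values gave 22 raised and 56 lowered, quantile normalization 33 and 110, and median-of-ratios scaling 29 and 90. With a pseudocount of 5, Control-GalNAc-ASO against DPBS raised 1 gene and the test of treatment by sex passed 2 genes, whereas the latter passed 0 without DPBS replicates 5, 6 and 7.

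Replicate numbers did not pair the mice. The correlations of same-numbered mice ran from -0.206 to 0.056, and none of the 5 treated mice correlated best with its own number. A fit with the replicate number as a block raised 14 and lowered 28 genes, and the same 10 mice without the block gave 37 and 44. *Hbb-bt* then had log2 fold changes of -0.14 with the block and -0.10 without it, and it was not called in either. Of the alternative values of the 46 named called genes, 1201 kept the call and 179 lost it with the same sign. For the 26 named genes that were not called, 18 values gained a call. The cause of these changes was not tested.

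Depth limits genes near the floor of 3 reads, such as *Lipc* and *Immp2l* in treated mice, whose levels there are not resolved.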

Other observations

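The genes named here belong to no list and were picked after their values were seen, so they show nothing about a pathway. *Thrb*, the main thyroid hormone receptor of hepatocytes, had 4.05, 4.22, 10.1, 5.37 and 4.51 TPM in treated replicates 1, 2, 4, 5 and 6. The DPBS mice ranged from 11.8 to 76.9 TPM with a median of 39.4. All treated mice lay below all DPBS mice (log2 fold change -2.38 ± 0.40 standard error, adjusted p = 0.00119 in limma). *Dio1*, the deiodinase that converts thyroxine to its active form, was at 4.90 to 36.6 TPM against 32.6 to 297 TPM, with overlap in the males (-2.49, standard error 0.50, adjusted p = 0.0111, and 0.0564 without treated replicate 6). *Thrb* spans 377.8 kb, and *Dio1* 15.7 kb.

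The receptor genes *Ghr*, *Lifr* and *Il6ra*, picked in the same way, fell, while the receptor genes *Adora1* and *Adrb3* described above rose. *Ghr*, the growth hormone receptor, had 32.2, 27.1, 75.5, 48.8 and 63.2 TPM against 72.0 to 204 TPM, with each sex below DPBS mice of its own sex (-1.58, standard error 0.28, adjusted p = 0.00306). *Lifr*, the receptor for leukaemia inhibitory factor, was at or under 159 TPM against 151 to 479 TPM (-1.69, standard error 0.33, adjusted p = 0.00722). *Il6ra*, the receptor for interleukin 6, was at 5.99 to 20.1 TPM against 18.4 to 63.6 TPM (-1.44, standard error 0.35, adjusted p = 0.0408). The call of *Il6ra* held in 6 of 16 fits without a single mouse, with adjusted p up to 0.124 without treated replicate 6. Control-GalNAc-ASO against the same DPBS mice gave log2 fold changes of -0.05 for *Ghr*, 0.29 for *Lifr* and -0.37 for *Il6ra*.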
